A study of Mus musculus with 9 samples.

Results

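RNA from whole mouse lungs, taken at E18.5, an embryonic stage shortly before birth, was sequenced. Among 27207 genes in the table, 9359 carried only a provisional name, a Gm number from gene models or a RIKEN cDNA clone name ending in Rik. Of these, 100 loci had at most 3 raw counts summed over the 3 wild type libraries and at least 5 raw counts in each of the 6 libraries from lungs with a conditional knockout of Dnmt1, and these 100 loci are described here. The counts of those 9 libraries chose the loci, so the contrast of mutant with wild type lungs is given for them as a description, with no test. Strong CKO denotes 3 Dnmt1 conditional knockout lungs that were hypoplastic with widespread haemorrhage in the parenchyma, weak CKO denotes 3 knockout lungs that were hypoplastic only, and wild type denotes 3 control lungs. All 6 knockout lungs carried Tbx4-rtTA, Tet-O-Cre and Dnmt1-D/D, and the control lungs are labelled only as wild type. The Tbx4-rtTA driver is one used to direct Cre to lung mesenchyme, so a whole lung also held cells outside the driver's reach. Libraries are named MUT_S for strong CKO, MUT_W for weak CKO and WT for wild type, followed by a library number and a last digit.

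DNMT1 is the methyltransferase that copies cytosine methylation at CG pairs onto the new DNA strand after replication. In mouse somatic cells DNA methylation keeps silent many genes that are otherwise used in germ cells, together with endogenous retroviruses and other repeats. Loci with Gm and Rik names are mostly non-coding RNAs, pseudogenes and coding genes of unknown role, so most of the 100 loci have no known function to state. Pseudogenes are gene copies that have lost the intact coding frame, and processed pseudogenes are copies made from a spliced messenger RNA.

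Total counts were 25607595 to 29420807 in strong CKO, 29603791 to 33156732 in weak CKO and 30562772 to 32485816 in wild type libraries. Dnmt1 itself was measured at 62.0, 78.7 and 65.1 CPM (counts scaled to library size, TMM-normalised) in strong CKO, 59.1, 69.1 and 80.6 CPM in weak CKO, and 79.1, 121 and 97.2 CPM in wild type lungs. The strong CKO fell by 0.53 ± 0.17 (log2, SE, n = 3 each) with an adjusted p of 0.0433 in edgeR's quasi-likelihood test, and leaving out WT_268_1, WT_549_2, MUT_S_265_5, MUT_S_860_3 or MUT_W_268_3 brought that adjusted p to between 0.0694 and 0.152. The weak CKO value was -0.51 ± 0.17 with an adjusted p of 0.0727, and 0.0264 without WT_265_1. Counts are summed over a whole gene, so transcripts of a deleted allele can still be counted. The 9 lung markers (among them Sftpc, Nkx2-1 and Tbx4) summed to 11000 to 12100 CPM in strong CKO, 12200 to 13300 CPM in weak CKO and 11800 to 16000 CPM in wild type libraries. Sftpc was the largest part of each sum. By edgeR's quasi-likelihood test against wild type, 5 of the 9 were called lower in strong CKO and 3 in weak CKO, with none higher. Tbx4 and Tcf21 were picked after their values were seen. Tbx4 changed by -0.96 ± 0.17 (log2, SE) in strong CKO (adjusted p = 0.00322) and by -0.695 in weak CKO (adjusted p = 0.0235). Tcf21 changed by -0.80 in strong CKO (adjusted p = 0.000639) and by -0.56 in weak CKO (adjusted p = 0.00759).

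Promoter sequence is shown first for 4 of the loci, because CG pairs are the sites DNMT1 methylates and these loci differ in CG content. The windows are the 250 bases before the transcript start in RefSeq, on build GRCm38.p6, written 5′ to 3′ on the strand of the gene. In the first 3, CG pairs are in capitals. Gm364 at chrX:57408899-57409148 (plus strand) held 10 CG pairs, 1700028I16Rik at chr10:82811873-82812122 (plus strand) held 22, and Gm40652 at chr10:57116972-57117221 (plus strand) held 1. In Gm9 at chrX:37211042-37211291 (minus strand), copies of CCAAT are in capitals, of which there were 5.
Gm364: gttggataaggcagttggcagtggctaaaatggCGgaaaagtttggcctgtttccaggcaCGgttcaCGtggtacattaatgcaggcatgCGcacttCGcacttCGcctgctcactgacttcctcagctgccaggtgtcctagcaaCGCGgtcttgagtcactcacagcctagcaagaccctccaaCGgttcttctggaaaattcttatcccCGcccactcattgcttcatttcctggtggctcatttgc
1700028I16Rik: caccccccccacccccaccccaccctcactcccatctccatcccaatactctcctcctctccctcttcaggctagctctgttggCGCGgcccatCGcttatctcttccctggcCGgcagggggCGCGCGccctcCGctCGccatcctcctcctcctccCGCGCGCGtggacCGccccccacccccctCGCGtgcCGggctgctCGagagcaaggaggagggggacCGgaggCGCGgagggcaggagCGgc
Gm40652: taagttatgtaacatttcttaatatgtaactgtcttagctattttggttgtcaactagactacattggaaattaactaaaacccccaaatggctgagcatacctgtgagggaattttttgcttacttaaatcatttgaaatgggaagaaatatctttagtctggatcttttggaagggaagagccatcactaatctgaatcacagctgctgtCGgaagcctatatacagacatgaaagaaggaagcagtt
Gm9: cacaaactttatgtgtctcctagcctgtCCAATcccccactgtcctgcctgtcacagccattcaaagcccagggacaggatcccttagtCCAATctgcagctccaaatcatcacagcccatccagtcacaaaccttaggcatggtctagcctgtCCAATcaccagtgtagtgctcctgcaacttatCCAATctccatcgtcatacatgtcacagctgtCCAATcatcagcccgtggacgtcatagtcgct

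RefSeq windows of 300 bases, from 250 before to 50 after the start, were found for 34 of the 100 loci. Their CG content was low, with a median of 5 CG pairs and an observed-to-expected CG ratio of 0.265. The 255 windows of Gm and Rik loci that were silent in wild type lungs and missed the knockout minimum also had a median of 5, with a ratio of 0.286. Promoters of a list of 24 germline genes had a median of 19.5 CG pairs and a ratio of 0.723, and all 27018 windows in the RefSeq table had a median of 7 and a ratio of 0.388. Only 3 of the 34 loci had a window with 15 or more CG pairs (1700028I16Rik, 1700018B08Rik and Gm14149), and 12 had at most 2 in each window. (These 3, shown or named for their CG content, were picked after their values were seen.) The window of 1700018B08Rik with 16 CG pairs lay at a RefSeq start 2366 bases from the annotated start of the locus. Its other window, at a start 8 bases from the annotated one, held 8. The motif CCAAT on either strand, the sequence bound by the NF-Y factor, was present in 61.8% of the loci with a window, against 36.1% of the silent loci outside the rule and 37.9% of all windows. TATAAA on either strand was present in 2.94%, against 14.5% and 14.2%. The E2F-type sequence GCGGGA was present in 11.8% against 9.41% and 20%, the E-box CACGTG in 8.82% against 4.31% and 7.24%, and TGACGTCA in 2.94% against 0.784% and 1.88%, each on either strand. As counts among the 34, CCAAT was in 21, GCGGGA in 4, CACGTG in 3, and TATAAA and TGACGTCA in 1 each. On the germline list, CCAAT and CACGTG were each in 50.0% and GCGGGA in 45.8%. Named genes that met the same count limits had CCAAT in 47.1%, CACGTG in 10.3% and GCGGGA in 13.2%. These shares are descriptions of letters in a window and no test was made on them. The TGACGTCA, CACGTG and GCGGGA letters each include a CG pair.

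Over the 100 loci, raw counts summed to 6278, 5676 and 7504 in the strong CKO libraries, 6667, 7187 and 4607 in the weak CKO libraries, and 26, 24 and 22 in the wild type libraries. Each wild type library held a count for only 18 to 20 of the 100 loci. The wild type sum was 0 for 61 loci, 1 for 16, 2 for 13 and 3 for 10. Mean RPKM (reads scaled by gene length and by library size, from the authors' table) over the 6 knockout libraries ran from 0.063 to 14.3 with a median of 0.649, and 36 loci were above 1 RPKM. For the 61 loci with no wild type count, the mean CPM was at least 6.49 to 383-fold higher in strong CKO and at least 5.77 to 352-fold higher in weak CKO than the floor of 0.0327 CPM, which is 3 counts over the wild type group. In bulk lungs, fewer cells of a type and less RNA per cell cannot be told apart.

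The count rule was met by 1.07% of the Gm and Rik loci, by 0.515% of the 17848 other genes in the table, 92 in number, and by 0.706% of all genes. These shares follow from the rule and nothing is read from them. Another 1210 Gm and Rik loci had at most 3 wild type counts and missed the knockout minimum. Just inside the wild type limit, at a sum of 3 counts, were 10 loci, led by Gm45121 at 4.28 RPKM, Gm48550 at 1.63, Gm11843 at 1.08, Gm29084 at 0.948 and Gm47939 at 0.514. Just outside it, at a sum of 4, were 6 loci, led by Gm16570 at a mean of 38.0 RPKM in the knockout libraries, Gm44742 at 1.78, Gm371 at 1.44, G730013B05Rik at 0.499 and A030012G06Rik at 0.232. Gm16570 would thus have been the highest of the set had the limit been 1 count wider. At the other limit, 11 loci had a lowest knockout count of 5, led by Gm42566 at 0.528 RPKM, Gm6074 at 0.496, Gm31579 at 0.412, Gm7394 at 0.396 and Gm5446 at 0.368, and 14 loci had a lowest count of 4, led by Gm48554 at 1.29 RPKM, Gm20400 at 0.409, Gm42861 at 0.384, Gm12003 at 0.266 and Gm11413 at 0.26.

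**Figure D1:**
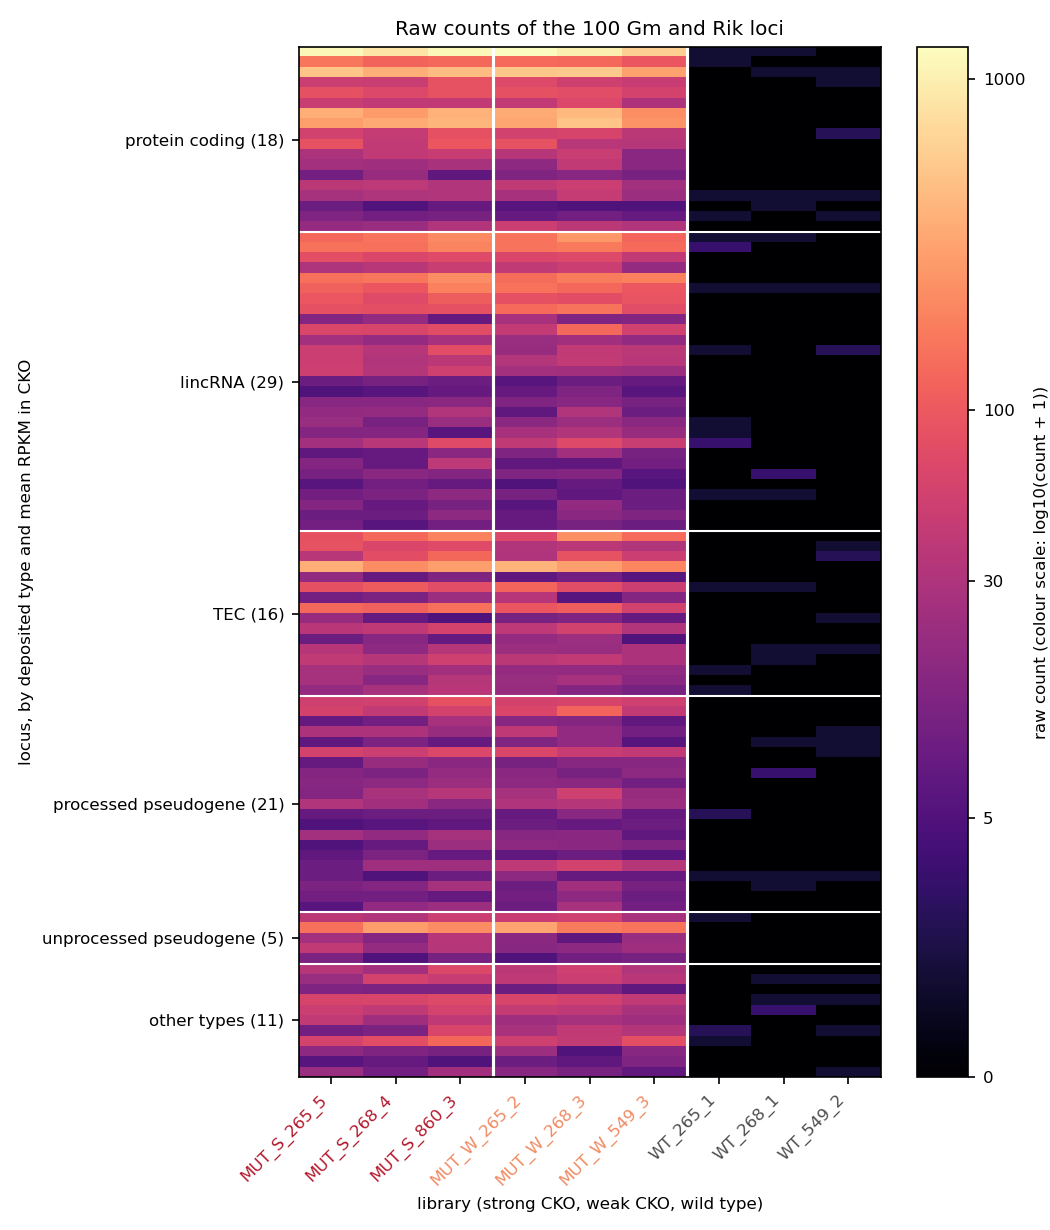
Raw counts of the 100 loci (rows, grouped by deposited transcript type) in 3 strong CKO, 3 weak CKO and 3 wild type libraries (columns). Colour gives the count on a log10(count + 1) scale, and knockout counts run from 5 to 1249 while no wild type count exceeds 3.

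X-linked protein-coding genes included the locus with the highest level. Gm364, at chrX:57409154-57488767 on the plus strand and 16118 bases from Rbmx, had 1121, 848 and 1139 counts in strong CKO, 1249, 1012 and 610 in weak CKO, and 1, 1 and 0 in wild type lungs. That is 15.6 ± 2.57 RPKM in strong CKO and 12.9 ± 4.99 RPKM in weak CKO (SD, n = 3 each), and the count ratio to wild type was 1690 (95% counting interval 467 to 13900) in strong CKO and 1390 (384 to 11500) in weak CKO. The highest and the lowest knockout values of Gm364 were both in weak CKO, so the knockout groups overlapped. Gm364 alone made up 15.9% of the summed CPM of the 100 loci. 4930550L24Rik, which RefSeq also lists as mage-k1, a name from the MAGE family of X-linked germline and tumour antigens, had 515, 383 and 469 counts in strong CKO, 537, 571 and 311 in weak CKO and 0, 1 and 1 in wild type lungs. Gm9, at chrX:37209348-37211041 on the minus strand, had 167, 122 and 133 counts in strong CKO, 134, 133 and 93 in weak CKO and 1, 0 and 0 in wild type lungs. Gm6880, named Ctag2l1 in RefSeq after the CTAG2 cancer-testis antigen of humans, was low, with 10, 20 and 7 counts in strong CKO, 13, 15 and 11 in weak CKO and 0 in each wild type lung.

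In all, 12 of the 100 loci lay on the X chromosome, and 10 of these were among the 18 protein-coding loci. The X-linked share of 12% stood beside 4.88% of the 1210 silent loci outside the rule, 2.66% of all Gm and Rik loci and 3.35% of all genes. Summed CPM of the X-linked loci was 93.7, 67.7 and 82.5 in strong CKO, 88, 73.8 and 44.8 in weak CKO, and 0.0698, 0.0646 and 0.0934 in wild type libraries. Y-linked genes (Ddx3y, Eif2s3y, Kdm5d and Uty) were high in MUT_W_268_3, WT_265_1 and WT_549_2, at a mean of 6.44 to 6.53 log2 CPM, and lay between -3.77 and -3.29 in the other 6 libraries. The X-linked sum of MUT_W_268_3 fell within the range of the other knockout libraries. None of the 100 loci lay on chromosomes 17, 18, 19 or Y.

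Long intergenic RNAs (lincRNA) formed the largest type, with 29 loci and a median of 0.402 RPKM. Gm40652, spanning chr10:57117222-57157621, had 130, 154 and 219 counts in strong CKO, 158, 264 and 124 in weak CKO and 1, 1 and 0 in wild type lungs. Gm45121 on chromosome 7 had 153, 147 and 202 counts in strong CKO, 155, 168 and 135 in weak CKO and 3, 0 and 0 in wild type lungs. 1700018B24Rik on chromosome 3 had 81, 66 and 73 counts in strong CKO, 65, 71 and 43 in weak CKO and 0 in each wild type lung, which is at least 80.0-fold and 57.9-fold above the floor. Every strong CKO library exceeded every weak CKO library for 1700018B24Rik in CPM, whereas the knockout groups overlapped for Gm40652 and Gm45121.

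Loci of the TEC class, which the annotation reserves for transcripts awaiting experimental testing, numbered 16. Gm36954, at chr11:9705261-9705623, had 87, 133 and 193 counts in strong CKO, 68, 238 and 134 in weak CKO and 0 in each wild type lung. Its level was 12.2 ± 4.01 RPKM in strong CKO and 11.4 ± 6.03 RPKM in weak CKO (SD, n = 3 each), so it varied widely within both groups. Gm43940, a short locus at chr6:139830387-139830551 inside an intron of Pik3c2g, had 88, 66 and 74 counts in strong CKO, 32, 38 and 32 in weak CKO and 0, 0 and 1 in wild type lungs. All 3 strong CKO values of Gm43940 lay above all 3 weak CKO values. Over its whole 165 bases Gm43940 was 99.4% identical to Gm9864 in the reverse orientation. It matched 20 other loci in all at 90% identity or more over at least 100 bases. How reads that map to several places were counted is not stated, so its counts are uncertain. Gm44380 at chr6:4367774-4368066 had 36, 80 and 128 counts in strong CKO, 31, 89 and 51 in weak CKO and 0, 0 and 2 in wild type lungs.

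One small nucleolar RNA and one small nuclear RNA met the rule. The snoRNA Gm22622 had 34, 25 and 67 counts in strong CKO, 38, 53 and 32 in weak CKO and 0 in each wild type lung. Its deposited length was 130 bases, so its mean of 9.76 RPKM rests on few reads.

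Among the 9 Rik loci, 7 carried a clone prefix of the RIKEN testis libraries, which is 77.8% of them. The same prefixes made up 52.1% of the Rik names among the silent loci outside the rule and 32.8% of all Rik names in the table. By type, protein-coding loci were 18% of the 100, against 5.54% of the 1210 silent loci outside the rule, and antisense loci were 2.0% against 11.8%. Processed pseudogenes were 21.0% against 31.5%. These shares were not tested, since the loci were chosen with the counts known.

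**Figure D2:**
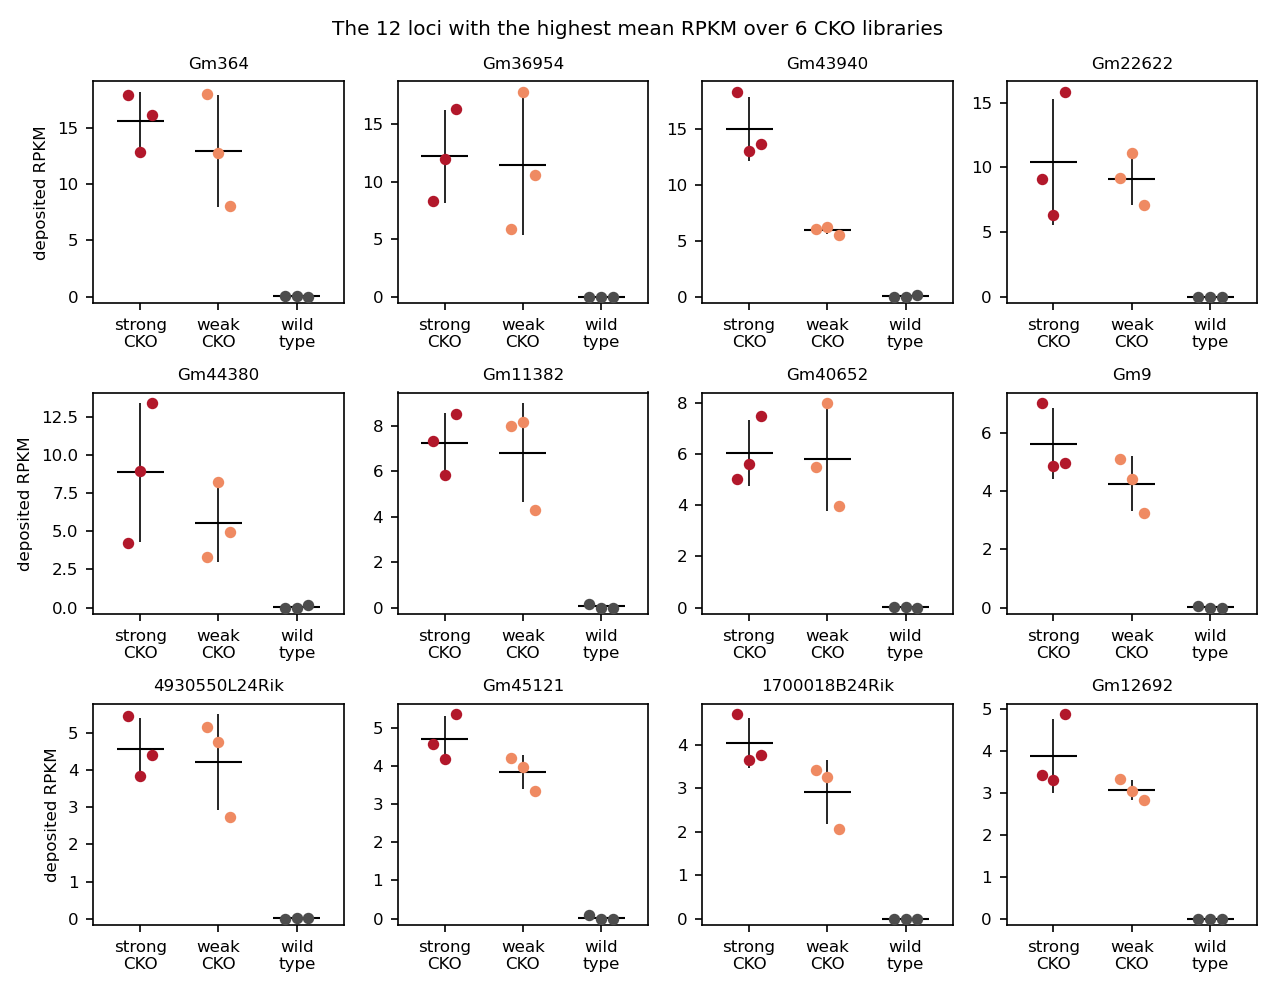
RPKM from the authors' table for the 12 loci with the highest mean over 6 knockout libraries, in strong CKO, weak CKO and wild type lungs. Points are libraries, horizontal lines are group means and vertical lines are 1 SD (n = 3). Wild type values lie at or near 0, and the 2 knockout groups overlap in the panels other than Gm43940 and 1700018B24Rik.

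Processed pseudogenes numbered 21, with a median of 0.633 RPKM. Gm12692 on chromosome 4 had 54, 55 and 87 counts in strong CKO, 58, 61 and 54 in weak CKO and 0 in each wild type lung. Gm9655, a copy of the chaperonin gene Hspd1 that RefSeq lists as Hspd1-5p, had 58, 49 and 67 counts in strong CKO, 66, 47 and 42 in weak CKO and 0, 0 and 1 in wild type lungs, while Hspd1 averaged 121, 114 and 101 CPM in strong CKO, weak CKO and wild type. Of the 21 processed pseudogenes, 12 had a best match expressed above 1 CPM in wild type lungs. Identity after rounding was at least 90% for 6 of these matches. The match of Gm28188 to Ankrd37, at 89.956%, is among the 6 only by rounding. The match of Gm18643 to Arhgap20 covered 3.99% of that locus. Both loci were picked after their values were seen. The unprocessed pseudogene Gm11382, 92.3% identical to the serine protease inhibitor gene Serpinb9, had 38, 32 and 50 counts in strong CKO, 46, 54 and 27 in weak CKO and 1, 0 and 0 in wild type lungs. Serpinb9, one of the matching genes given here after their values were seen, was at 106 to 130 CPM in strong CKO, 112 to 122 CPM in weak CKO and 135 to 144 CPM in wild type lungs, with adjusted p-values of 0.0366 and 0.0507.

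Many of the loci share a stretch of similar sequence with another locus, in some cases over a small part of their length. A transcript of another locus matched at 90% identity or more over at least 100 bases for 59 of the 100 loci and over at least 500 bases for 37. The same shares were 47.0% and 20.2% for the 1210 silent loci outside the rule. How the authors counted reads that map to several places is not stated, so counts from such stretches are uncertain. Within the 100 loci, 3 groups matched each other over at least 500 bases. Most of their members were picked after their values were seen. One held 5 loci (Gm10040, Gm38194, Gm44231, Gm48368 and Gm9864), the next held 4 (Gm29084, Gm42860, Gm44215 and Gm45322), and the last held Gm43549, Gm47939 and Gm48362, on chromosomes 3, 10 and 9. In the last group identity was 98.8% to 99.5%. Gm43549 had 52, 33 and 53 counts in strong CKO, 25, 24 and 22 in weak CKO and 0 in each wild type lung, Gm47939 had 51, 34 and 80 in strong CKO, 20, 42 and 38 in weak CKO and 1, 0 and 2 in wild type, and Gm48362 had 14, 8 and 39 in strong CKO, 7, 7 and 10 in weak CKO and 0 in each wild type lung. The best match of Gm48362 was Gm42047, a lincRNA outside the 100 loci, at 98.4% identity over the whole of Gm48362. Gm42047, picked after its values were seen, averaged 51.8, 41.6 and 20.7 CPM in strong CKO, weak CKO and wild type. Whether reads of Gm42047 were counted at Gm48362 was not tested. The members of a group share sequence and are not independent observations.

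For 4 loci the best match was an annotated transcript of Noct, which encodes the circadian deadenylase-like protein nocturnin. They were Gm44380, identical to it over all its 293 bases, Gm29084, Gm42605 and Gm42860. At 90% identity or more over at least 100 bases, they matched 77, 35, 77 and 74 other loci in that order. The shared stretches are thus not particular to Noct, and Gm42605 matched it in the reverse orientation. Noct, picked after its values were seen, stood at 141, 125 and 10.9 CPM in strong CKO, 155, 122 and 116 CPM in weak CKO and 11, 11.9 and 12 CPM in wild type lungs. It was thus high in 5 of the 6 knockout libraries and at the wild type level in MUT_S_860_3. Gm44380 had its highest count, 128, in that same library MUT_S_860_3. Noct was called higher in strong CKO (log2 change 2.99 ± 0.84, adjusted p = 0.0417) and in weak CKO (3.50 ± 0.85, adjusted p = 0.0403) by edgeR's quasi-likelihood test. Without MUT_S_860_3 these adjusted p-values were 1.51e-06 and 1.32e-06, and leaving out any 1 other library gave 0.0514 to 0.126.

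In 4 places, more than 1 of the loci lay within 50 kb. On chromosome 8, a span of 17563 bases held 1700018B08Rik, Gm27045 and 1700030M09Rik. Gm27045, at chr8:121542080-121543481, had 62, 64 and 70 counts in strong CKO, 64, 55 and 43 in weak CKO and 0, 1 and 1 in wild type lungs, and it overlaps an exon of 1700018B08Rik on the opposite strand. 1700018B08Rik had 13, 10 and 11 counts in strong CKO, 8, 10 and 8 in weak CKO and 1, 0 and 1 in wild type lungs, and 1700030M09Rik had 6, 8 and 5 counts in strong CKO, 9, 7 and 13 in weak CKO and 0 in each wild type lung. The other places paired the pseudogenes Gm12692 and Gm12787 on chromosome 4, Gm45121 and the pseudogene Gm7258 on chromosome 7, and Gm45861 and Gm1698, which share exons on the same strand of chromosome 8. Gm45861, which overlaps the RefSeq gene Poteg, had 294, 351 and 418 counts in strong CKO, 333, 512 and 251 in weak CKO and 0 in each wild type lung, at least 383-fold and 352-fold above the floor. Gm12787 had 8 to 20 counts in strong CKO and 11 to 15 in weak CKO, Gm7258 had 8 to 27 and 7 to 15, and Gm1698 had 9 to 17 and 8 to 16, each with 0 in wild type lungs.

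**Figure D3:**
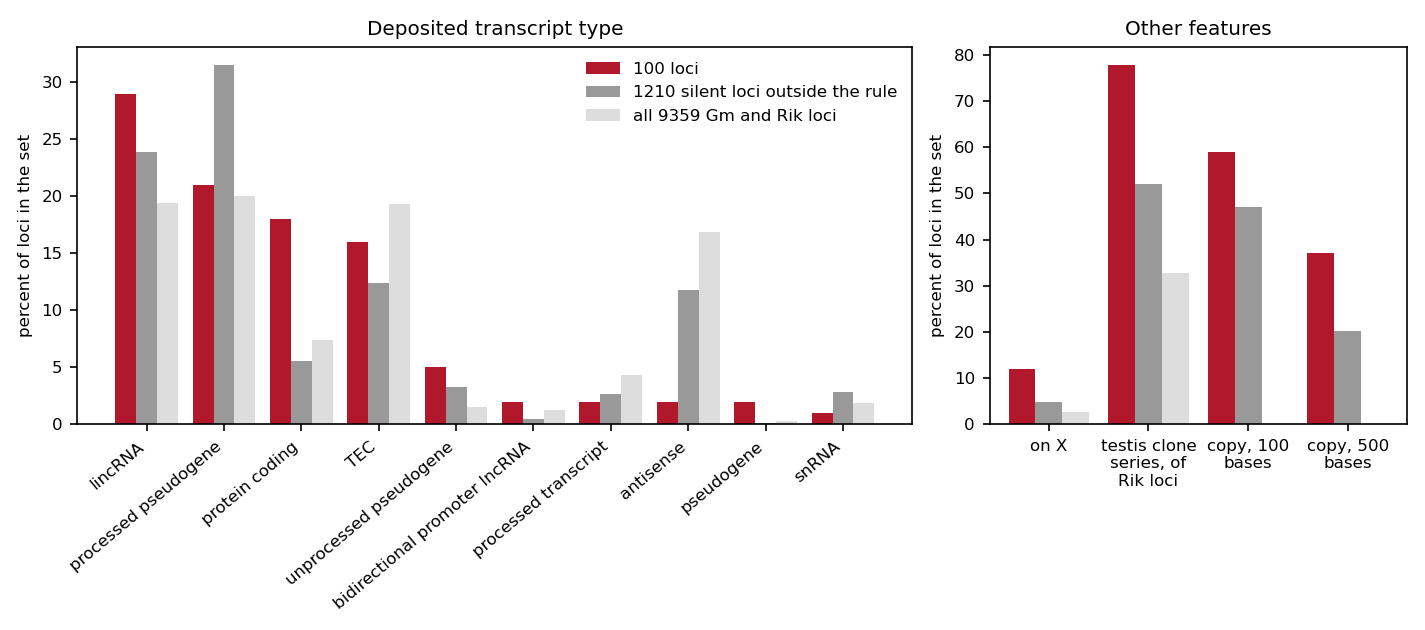
Share of loci by deposited transcript type (left) and by other features (right) for the 100 loci, the 1210 silent loci that missed the knockout minimum and all 9359 Gm and Rik loci, on percent axes. Copies at 90% identity or more were searched for the first 2 sets only. Protein-coding loci are 18%, 5.54% and 7.38% of the sets, and X-linked loci 12%, 4.88% and 2.66%.

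Of the 100 loci, 78 were intergenic, 14 lay within an intron and 8 overlapped an exon of another gene. Positions were not worked out for other Gm and Rik loci, so no share can be set beside these. The nearest other gene in the table lay at a median of 36813.5 bases. The nearest genes, 93 in number once shared ones were counted once, were not used by the rule, and 64 of them were tested. In strong CKO against wild type, 28 of the 64 were called (16 higher and 12 lower, edgeR's quasi-likelihood test with Benjamini-Hochberg adjustment over all genes), 43.8% beside 25.6% of all genes tested. In weak CKO against wild type, 17 of 64 were called (12 higher and 5 lower), 26.6% beside 14.5% of all genes. Within 5 kb, 8 of 11 tested neighbours were called in strong CKO (6 higher and 2 lower) and 4 of 11 in weak CKO, all higher. Rhox1 and Lrrtm4, both within 5 kb and counted as called in both comparisons, met the count rule themselves. All 87 tested named genes that met it were called higher in both comparisons. The median log2 change over the 64 neighbours was -0.06 in strong CKO and 0.01 in weak CKO, beside 0.00 and -0.01 over all genes. The strong CKO and weak CKO comparisons share the wild type libraries. The strong CKO count was 17 when the erythroid marker level entered the fit and 18 when the Y-linked level did. The number called over all genes also fell in both of those fits, as given further below.

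Neighbours within 5 kb included D1Pas1 and Rhox1. D1Pas1, a testis-expressed DEAD-box RNA helicase gene that overlaps Gm37912 on the opposite strand, was at 7.08, 3.46 and 5.32 CPM in strong CKO, 6.88, 6.47 and 3.13 CPM in weak CKO and 0.105, 0.0323 and 0.124 CPM in wild type lungs. It rose by 5.85 ± 0.53 (log2, SE) in strong CKO with an adjusted p of 6.84e-05 and by 5.91 ± 0.53 in weak CKO with an adjusted p of 8.77e-05. Gm37912 had 21, 10 and 24 counts in strong CKO, 15, 11 and 7 in weak CKO and 0, 0 and 1 in wild type lungs. Whether the counting used strand is not stated, so reads in the stretch where the ends of this pair overlap cannot be told apart. Rhox1, the reproductive homeobox gene 2763 bases from Gm9, was at 1.21, 0.821 and 0.602 CPM in strong CKO, 1.16, 0.656 and 0.345 CPM in weak CKO and 0, 0 and 0.0311 CPM in wild type lungs. Its count ratio to wild type was 79.3 (95% counting interval 13.8 to 3170) in strong CKO and 64.9 (11.2 to 2600) in weak CKO. Rhox1 met the count rule itself, so its values are given as a description, with no p-value. Lrrtm4, a synaptic membrane protein gene whose intron holds Gm44231 on the same strand, met the count rule as well. It had 44 counts in strong CKO, 35 in weak CKO and 3 in wild type. Its ratio to wild type was 15.9 (5.11 to 80.2) in strong CKO and 11.3 (3.56 to 57.4) in weak CKO, again with no p-value. All its wild type counts were in WT_268_1, and without that library the log2 change was 6.98 in strong CKO and 6.48 in weak CKO, against 3.83 and 3.34 with it.

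Pik3c2g, a phosphoinositide kinase gene, was lower in strong CKO, unlike the locus in its intron. It was at 1.36, 1.96 and 1.84 CPM in strong CKO, 4.67, 4.59 and 5.83 CPM in weak CKO and 13.4, 3.91 and 8.15 CPM in wild type lungs. It fell by 2.30 ± 0.40 on the log2 scale in strong CKO (adjusted p = 0.00299), while the weak CKO value of -0.75 ± 0.36 did not pass (adjusted p = 0.21; 0.0207 without WT_268_1). Gm43940, in its intron on the same strand, was highest in strong CKO as given above, but its counts are uncertain because it shares its sequence with other loci. The other called neighbours within 5 kb in strong CKO changed by less than 1 on the log2 scale. Anxa8, an annexin, rose by 0.71 ± 0.16 (adjusted p = 0.00871), Fbxo31, an F-box protein gene, by 0.35 ± 0.08 (adjusted p = 0.0121) and 9330111N05Rik by 0.93 ± 0.30 (adjusted p = 0.0405), and Fras1, an extracellular matrix protein gene, fell by 0.36 ± 0.11 (adjusted p = 0.04).

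**Figure D4:**
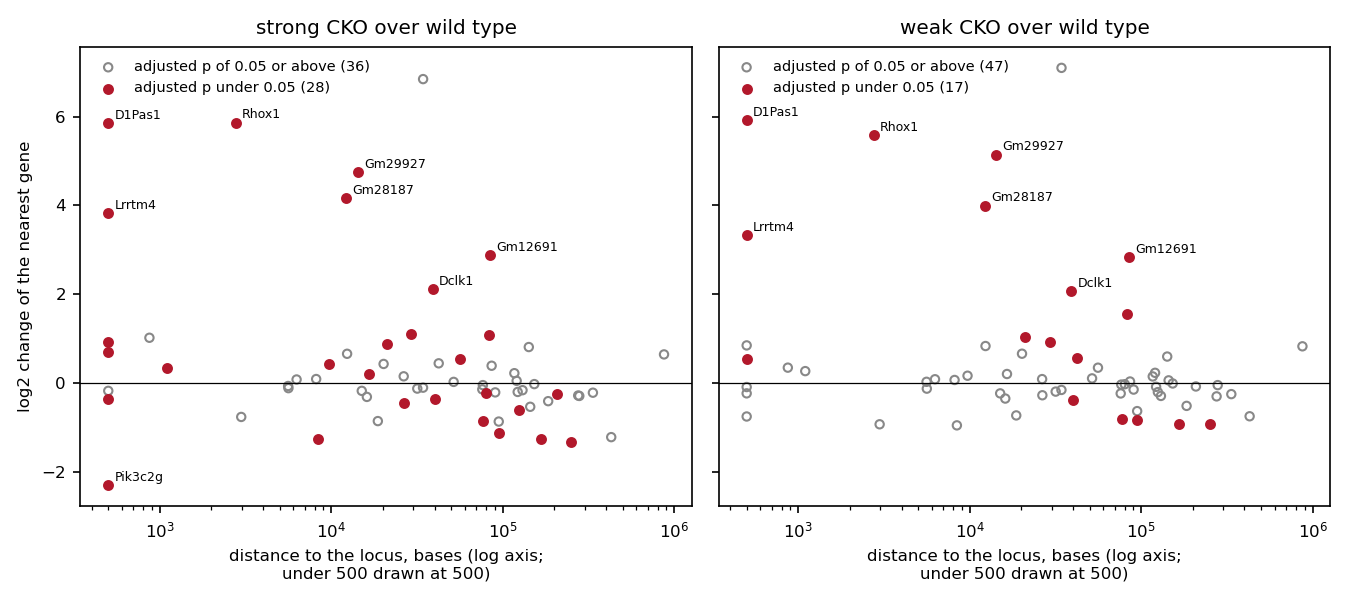
Log2 change of the nearest gene to each locus against its distance in bases (log axis) in strong CKO over wild type (left) and weak CKO over wild type (right), for the 64 neighbours tested. Filled points passed an adjusted p of 0.05, 28 in strong CKO and 17 in weak CKO. D1Pas1 and Rhox1 lie highest among the called neighbours within 5 kb, and Pik3c2g lies lowest in strong CKO.

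The comparison of strong with weak CKO lungs treated all 6 libraries alike in the rule and could be tested. A filter on low counts, edgeR's filterByExpr, passed 89 of the 100 loci. None of the 89 was called (edgeR's quasi-likelihood test, smallest adjusted p = 0.838), and DESeq2 and limma also called 0 of them. Over all 19374 genes tested 1 was called, 0.00516%. At an unadjusted p under 0.05 there were 10 of the 89 loci, 8 higher and 2 lower in strong CKO, beside 5.67% of all genes. Gm43940 had the smallest p, with a log2 change of 1.33 ± 0.27 (SE), 0.000484 before adjustment and 0.838 after. Among loci picked after their values were seen, Gm43549 had a log2 change of 1.12 ± 0.29 (adjusted p = 0.873), and Gm47014 and Gm47078 had the values -1.09 ± 0.37 and -1.03 ± 0.42 (adjusted p = 0.873 for both).

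Small differences leaned to the strong CKO side. The median log2 change over the 89 loci was 0.25, beside 0.00 over all genes, and 73 of 89 (82.0%) were above 0, beside 51.5% of all genes tested. The median was 0.24 over the named genes that met the same count rule and 0.25 over the germline list. These sets share some genes. All strong CKO libraries exceeded all weak CKO libraries for 14 of the 100 loci, beside 6.7% of the genes tested, and the reverse held for 3, beside 6.73%. The lean rested partly on 1 library. Without MUT_W_549_3 the median was 0.14 with 63.4% above 0, and it was 0.01 with 52.8% above 0 when the erythroid marker level entered the fit. With the library number as a replicate block it was 0.05 with 51.7% above 0. Erythroid markers, haemoglobin genes among them, summed to 6740 to 12600 CPM in strong CKO, 3760 to 4370 CPM in weak CKO and 3910 to 7350 CPM in wild type libraries. The part of blood content in the lean was not tested further.

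**Figure D5:**
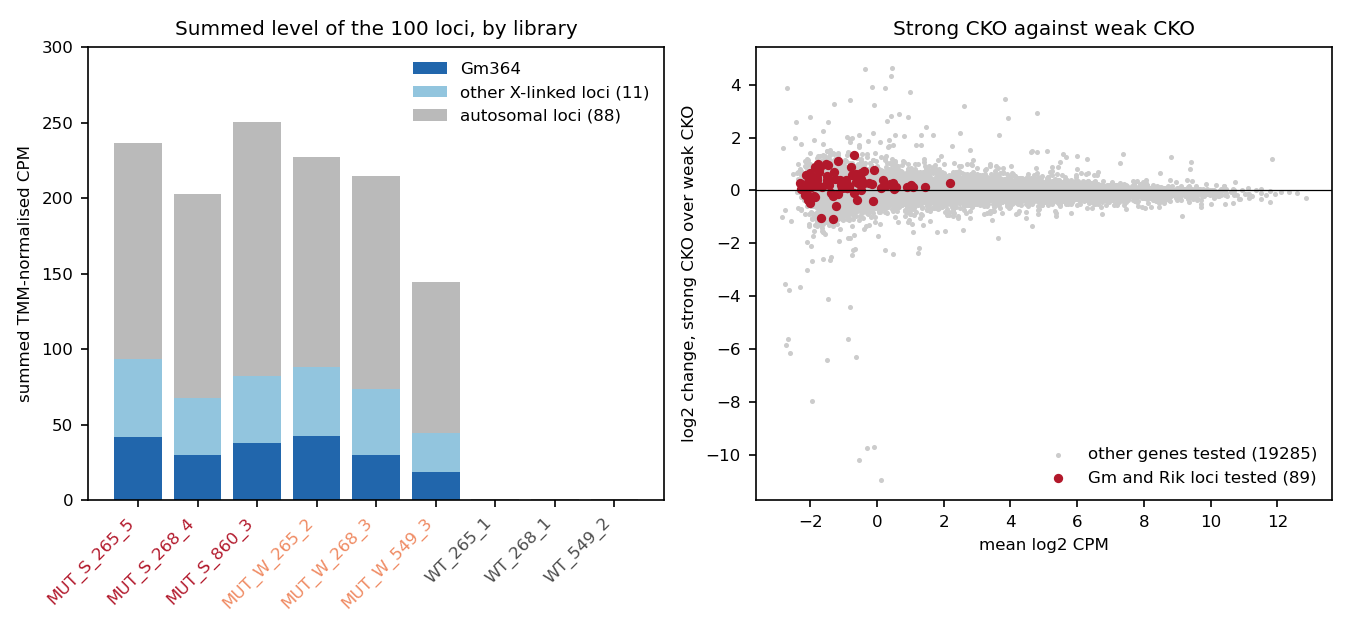
Left, summed TMM-normalised CPM of the 100 loci in 3 strong CKO, 3 weak CKO and 3 wild type libraries, split into Gm364, the other X-linked loci and the autosomal loci. Right, log2 change in strong CKO over weak CKO against mean log2 CPM for the 89 loci tested (red) and the other genes tested (grey). MUT_W_549_3 has the lowest knockout bar, 144 CPM, and the wild type bars are below 1 CPM.

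The loci differed in level among the 6 knockout libraries. Their summed level was 236, 202 and 251 CPM in strong CKO, 227, 214 and 144 CPM in weak CKO, and 0.907, 0.775 and 0.685 CPM in wild type libraries. MUT_W_549_3 gave the lowest CPM for 54 of the 100 loci and the highest for 1, whereas MUT_S_860_3 gave the highest for 33 and the lowest for 7. The named genes that met the same count rule and the germline list share some genes. MUT_W_549_3 was also lowest for 55 of the 92 such named genes and for 23 of the 24 germline genes. Dnmt1 was highest among knockout libraries in MUT_W_549_3, at 80.6 CPM, and the part of Dnmt1 level in this was not tested. The coefficient of variation of a locus over the 6 libraries had a median of 32.0%, and the ratio of its highest to its lowest library ran from 1.53 to 6.66 with a median of 2.38. The widest was Gm42605, picked after its values were seen, with 10, 12 and 22 counts in strong CKO and 35, 6 and 14 in weak CKO.

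Known germline genes rose in the same lungs. Of the 24 on the list, 23 were tested, and 21 were higher in strong CKO and 20 in weak CKO, with none lower, beside 14.6% and 9.09% of all genes called higher. Among those called, Tex19.1, Tex101, Rpl10l, Tuba3a and Hormad1, named here after their values were seen, met the count rule themselves. All 87 tested named genes that met it were called higher in both comparisons, so these calls were not independent of the rule. Their median log2 change was 5.62 in strong CKO and 5.29 in weak CKO. Dazl, an RNA-binding protein of germ cells, averaged 249 and 202 CPM in strong and weak CKO and 0.251 CPM in wild type, and Taf7l, a germ cell transcription factor subunit, 65.5 and 54.3 CPM and 0.0523 CPM. Stag3, a meiotic cohesin subunit, averaged 55.2 and 44.5 CPM and 3.22 CPM in wild type, and Sohlh2, a germ cell helix-loop-helix factor, 52.3 and 45.1 CPM and 0.0423 CPM. Their summed level in the knockout libraries was lowest in MUT_W_549_3, 403 CPM, where the 100 loci were lowest too. The list was chosen with earlier results of these data known.

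Markers of germ cells and of other tissues were measured in the same libraries. Of 8 haploid spermatid markers 2 were in the table, and they summed to 0.535 to 0.749 CPM in strong CKO, 0.627 to 0.817 CPM in weak CKO and 0.529 to 0.711 CPM in wild type libraries. The 5 oocyte markers in the table summed to 1.43 to 1.51, 1.04 to 1.72 and 1.49 to 1.92 CPM in the same order of groups, and the 2 pluripotent cell markers to 0.321 to 0.527, 0.407 to 0.537 and 0.349 to 0.614 CPM. The 5 gonadal somatic markers summed to at most 21.9 CPM in strong CKO, 17.5 CPM in weak CKO and 22.3 CPM in wild type libraries. The 6 meiotic spermatocyte markers summed to 47.3 to 55.7 CPM in strong CKO, 38.1 to 46.5 CPM in weak CKO and 25.6 to 31.3 CPM in wild type libraries, of which Hspa2 and Ccna1 made up most. Among other tissues, heart markers summed to 98.4 to 183, 91.3 to 133 and 55.3 to 76.6 CPM, liver markers to 0.678 to 1.34, 1.0 to 2.08 and 1.06 to 1.92 CPM, and thymus markers to 0.301 to 0.936, 0.409 to 0.865 and 0.105 to 0.311 CPM. None of the markers present in the table was at 0 in every library, and the part of these cells in the 100 loci was not tested.

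The other Gm and Rik loci moved in both directions. Of the 3775 tested outside the rule, 245 were higher and 244 lower in strong CKO, and 166 were higher and 122 lower in weak CKO, so 6.49% and 4.4% were higher, beside 14.6% and 9.09% of all genes, and 6.46% and 3.23% lower, beside 11% and 5.38%. Their median log2 change was -0.14 in strong CKO and -0.13 in weak CKO.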

How the data were processed

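RNA of 9 whole-lung samples was read as 75-base single reads, per the labels. The authors deposited 1 table with raw counts per gene, RPKM values per the file headers, and a gene length in bases (another column gives exon number). The submitters' processing notes list STAR, Trimmomatic 0.36, cutadapt 2.5, FastQC 0.11.8 and edgeR 3.28.1 with build GRCm38.p6. The counter, its strand setting and its handling of multiply mapped reads are not given in the sources used here. RPKM equalled counts divided by the deposited length and a library size of 1.03 to 1.13 column totals. For 98.9% of genes with 1 transcript that length was the exon bases plus 1 per exon. For the 22 loci with several transcripts it was up to 2.86 times the exon union, which lowers their RPKM.

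Groups were compared in 1 edgeR 4.0.16 fit (R 4.3.3) of all 9 libraries (TMM, filterByExpr, robust quasi-likelihood, two-sided), with Benjamini-Hochberg adjustment over 19374 genes at 0.05. The code was tested on simulated data. Errors of log2 changes are standard errors. The floor is 3 counts over the wild type group. Ratios carry exact 95% intervals, and both cover counting error only. The labels do not give the litter of each lung, and p-values cover only the spread among these samples. Loci were placed by Ensembl identifier with GENCODE vM21 (GRCm38), copies were sought with blastn 2.17.0, and 63 loci matched a RefSeq record. Of 37 RefSeq windows, 23 led into transcript sequence of the same locus in sense and none in antisense, and for 14 no such sequence was found. RefSeq starts lay up to 21659 bases from the GENCODE start of the locus (Gm1698).

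The loci, lists and tests were chosen with earlier results of these data known. The text names the 12 loci with the highest mean RPKM, the loci of the 4 largest positional clusters, up to 6 with another RefSeq symbol, 5 on each side of each limit, up to 8 neighbours within 5 kb, 4 germline genes and Dnmt1. Others are said to be picked after their values were seen. Alternatives were other scaling, no filter, DESeq2 1.42.0, limma 3.58.1 on log2(RPKM + 1) and log2(RPKM + 0.1), covariates, a replicate block, each library left out, and other limits in the rule.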

Additional observations from a re-analysis of the deposited data

How the results depend on the processing

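None of the loci was called in strong against weak CKO under any of the 19 alternatives. Over all genes, the count in that comparison, 1, became 10 with DESeq2, 4 with only the groups compared, 2 with limma on log2(RPKM + 0.1), 0 with the erythroid level as a covariate and 3 with the library number as a replicate block, and it was 1 to 4 with a library left out. Genes called in strong CKO against wild type numbered 4969, and 2914 with a Y-linked covariate, 3278 with the erythroid level, and 3101 to 4983 with a library left out (lowest without MUT_S_265_5). In weak CKO against wild type they numbered 2803, and 1310 to 2828 with a library left out, with 1766 without WT_549_2, 1432 without MUT_W_265_2 and 1310 without MUT_W_268_3. Neighbours called in strong CKO numbered 28, and 18 with the Y-linked level, 17 with the erythroid level and 20 to 30 with a library left out; in weak CKO they numbered 17, and 12 to 20 with a library left out. The cause of these shifts was not tested. The number of loci, 100, was 61 with no wild type count allowed, 61 with at least 10 counts in each knockout library, 43 with at least 20, 145 with up to 10 wild type counts, 138 with at least 3 counts in each knockout library, 86 with counts scaled to the smallest library, and 100 to 113 when 1 library was left out of the rule.

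Of 532 strong against weak values of 28 named loci, none passed the threshold, and 6 turned sign among loci whose reported change exceeded its standard error; sign changes of smaller values were not counted. With the erythroid level as a covariate Gm364 became -0.0852, Gm44380 -0.158, Gm45121 -0.264, Gm12692 -0.314 and Gm9655 -0.0733, and with the replicate block Gm364 became -0.00769; the cause was not tested. The median over the tested loci, an alternative added after the data were seen, was 0.05 with the replicate block, 0.01 with the erythroid level and 0.10 to 0.38 otherwise. Library numbers were not treated as pairs in the main fit, and the labels do not give their meaning. Same-numbered libraries correlated at -0.09 to 0.35 in their deviations from group means, and differently numbered ones at -0.38 to 0.19. The highest values were of same-numbered pairs, so a shared source of some lungs cannot be told from these data.

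Counts limit precision: the median locus had a mean of 26.4 counts per knockout library, 11 loci were too low to test, and the wild type state is known only to 3 counts over the group. Stretches shared with other loci make counts at 59 loci uncertain, and the groups hold 3 lungs each, so an exact permutation test of 1 value cannot go below 0.1.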
